A study of Mus musculus with 4 samples.

Results

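Aminoacyl-tRNA synthetases are the enzymes that attach each amino acid to its transfer RNA. They were followed here as a family of 34 genes, of 22180 genes named on the arrays. Members were all genes whose probe set carried a single platform symbol of the synthetase pattern. That gave 18 genes for cytosolic or dual enzymes and 16 genes for mitochondrial enzymes, whose symbols end in 2. All 34 passed the filter on dim genes, a mean log2 value of at least 6.58 over the 4 arrays. The probe set of Aars, the alanine enzyme, is listed together with another gene and is no member.

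The RNA came from embryoid bodies of R1, a mouse embryonic stem cell line, which form when the cells aggregate and start to differentiate. In all groups, cells freed of feeders were kept without LIF for 18 h in bacteriological dishes, and the aggregates were taken apart with trypsin before total RNA was extracted. The 4 groups were GSK-J4 at 1.88 µM, GSK-J5 at 1.88 µM, DMSO as vehicle, and embryoid body medium alone, each with 1 Affymetrix array. GSK-J4 is the ethyl ester prodrug of GSK-J1, which inhibits the KDM6 demethylases of histone H3. GSK-J5 is the ester of GSK-J2, whose pyridine ring carries its nitrogen at another position and which is far less active on KDM6. Without a second array of any treatment, no difference below has a replicate error of its own; counts by p-value come only from limma with the 3 controls taken as replicates, and precision is limited by how few arrays there are.

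Protein synthesis in the cytosol and inside mitochondria draws on separate sets of charged transfer RNAs. For most amino acids a pair of nuclear genes encodes the cytosolic and the mitochondrial enzyme, while Gars (glycine) and Kars (lysine) each supply both compartments. Eprs carries glutamate and proline activity in a single chain, and Farsa and Farsb are the subunits of the cytosolic phenylalanine enzyme. Several cytosolic synthetase genes belong to the amino acid response, in which uncharged transfer RNA activates the kinase GCN2 and the transcription factor ATF4 is translated. ATF4 binds short DNA elements joining a C/EBP and an ATF sequence, of which Asns, the asparagine synthetase gene, holds a textbook example.

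The element was searched as TGATGNAAN on both strands, as the only motif, in RefSeq promoters of GRCm38.p6 running from 250 bases before to 50 bases after the gene start. It was found in 4 of the 11 cytosolic synthetase genes with a promoter in that table (36.4%) and in 0 of the 14 mitochondrial ones. Of all 32851 promoters of that length 3.95% held it, and of the 13175 that belong to genes above the filter 2.23%. The windows below show the match in capitals with 10 bases on either side, read 5′ to 3′ along the gene. They are printed because the genes holding them can be set beside their array values, with Asns and Chac1, a glutathione-degrading enzyme gene, as known ATF4 targets.
Tars (chr15:11399656-11399684, minus strand): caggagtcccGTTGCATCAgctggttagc
Gars (chr6:55037960-55037988, plus strand): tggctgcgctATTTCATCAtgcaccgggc
Iars (chr13:49682126-49682154, plus strand): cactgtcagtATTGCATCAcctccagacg
Yars (chr4:129189896-129189924, plus strand): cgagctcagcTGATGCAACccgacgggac
Asns (chr6:7693214-7693242, minus strand): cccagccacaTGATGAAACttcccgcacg
Chac1 (chr2:119351038-119351066, plus strand): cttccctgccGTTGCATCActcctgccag
The match starts 16 bases before the gene start in Tars and 31 bases before it in Gars, and 7 and 4 bases into the transcript in Iars and Yars. In Tars, Gars, Iars and Chac1 the element reads on the strand opposite to the gene. A match describes these letters and is not a shown binding site, and a promoter without one says nothing on the factor.

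Transcripts of 7 of 18 cytosolic synthetases, led by Cars and Lars, read at least 25% higher in GSK-J4 than on any of the 3 control arrays, and 0 of 16 mitochondrial ones did. The distance from GSK-J4 to the nearest control array on the log2 scale is called the margin, and it is 0 where GSK-J4 lies inside the controls. Leaving out a control can only keep or widen a margin. The other 11 cytosolic members had margins from −0.12 to 0.29. By a margin of at least 1.5-fold (0.585), 1 of 18 cytosolic members was higher and 0 of 16 mitochondrial members, where 2.21% of the 13314 genes above the filter were higher. None of the 34 was lower by that margin, against 0.841% of genes. At a margin of at least 25% (0.322), 7 of 18 cytosolic members (38.9%) and 0 of 16 mitochondrial members were higher, beside 7.17% of genes. None was lower at 25%, beside 3.96% of genes. In these bulk samples more cells of a type and more RNA per cell cannot be told apart.

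Cars, the cysteine enzyme, was the member past 1.5-fold. It read 11.22 in GSK-J4, against 10.61 in GSK-J5, 10.48 in DMSO and 10.57 in medium. The GSK-J4 array stood apart from 3 controls that lay close together, 1.53-fold above the nearest. Lars, the leucine enzyme, came next and fell just short of 1.5-fold. It read 12.82 in GSK-J4, against 12.29 in GSK-J5, 12.32 in DMSO and 12.32 in medium, a margin of 0.50 over controls that spanned 0.03.

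Gars, the glycine enzyme of both compartments, read 12.90 in GSK-J4, against 12.48 in GSK-J5, 12.38 in DMSO and 12.42 in medium. Tars, the threonine enzyme, read 11.94 in GSK-J4, against 11.56 in GSK-J5, 11.45 in DMSO and 11.53 in medium. In both genes GSK-J4 was the high array and GSK-J5 the highest of the controls, with margins of 0.42 and 0.38. Both hold the element printed above within the bases just before the gene start. Sars, the serine enzyme, read 12.79 in GSK-J4, against 12.38 in GSK-J5, 12.12 in DMSO and 12.13 in medium. Its margin of 0.41 is set by the GSK-J5 array, which itself stood above the other controls. Without GSK-J5 among the controls the margin of Sars was 0.66, and 2 cytosolic members passed 1.5-fold. A wider margin follows from leaving out the nearest control, so it adds no support. The share over all genes without GSK-J5 is not given.

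Eprs, for glutamate and proline, read 12.42 in GSK-J4, against 12.08 in GSK-J5, 11.96 in DMSO and 12.02 in medium. Nars, the asparagine enzyme, read 13.17 in GSK-J4, against 12.84 in GSK-J5, 12.75 in DMSO and 12.67 in medium. Both passed 25% narrowly, with margins of 0.34 and 0.33, and in neither did GSK-J4 overlap the controls. Iars, the isoleucine enzyme, lay just under 25% and passed it without the GSK-J5 array: it read 13.15 in GSK-J4, against 12.86 in GSK-J5, 12.67 in DMSO and 12.81 in medium. The margins of Gars, Sars, Tars, Eprs, Nars and Iars, from 0.29 to 0.42, differ by less than the controls of Sars spread (0.26), so their order carries no weight.

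Wars, Yars and Mars1, for tryptophan, tyrosine and methionine, were higher by less. Wars read 12.32 in GSK-J4, with the controls between 12.04 and 12.11. Yars read 12.08 in GSK-J4, against 11.80 to 11.94, and Mars1 12.12, against 11.80 to 11.99. Of these, the margin of Wars (0.21) was larger than the range of its own controls, while those of Yars (0.14) and Mars1 (0.13) were not. That rests on the GSK-J5 array: without it the margins were 0.26 for Yars and 0.21 for Mars1, beyond the 0.02 and 0.11 that the remaining controls spanned.

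The remaining 7 cytosolic members did not lie above the controls. Qars, the glutamine enzyme, read 12.06 in GSK-J4, within the 11.97 to 12.08 of its controls. Farsb read 11.84 in GSK-J4, within 11.80 to 11.88. Farsa read 11.44 in GSK-J4, against 11.49 to 11.56, so that both subunits of the phenylalanine enzyme stayed within 0.05 of a control array. Hars (histidine), Vars (valine), Rars (arginine) and Kars (lysine) lay slightly below all controls, with margins from −0.12 for Kars to −0.07 for Hars. Hars read 11.36 in GSK-J4, against 11.43 to 11.56, and Vars 11.83, against 11.91 to 12.02. Kars read 12.64 in GSK-J4, against 12.76 to 12.78, and Rars 12.74, against 12.85 to 12.86: small distances, but beyond the narrow range of their controls. Gars and Kars, which both supply mitochondria as well, thus lay on opposite sides of the controls.

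**Figure D1:**
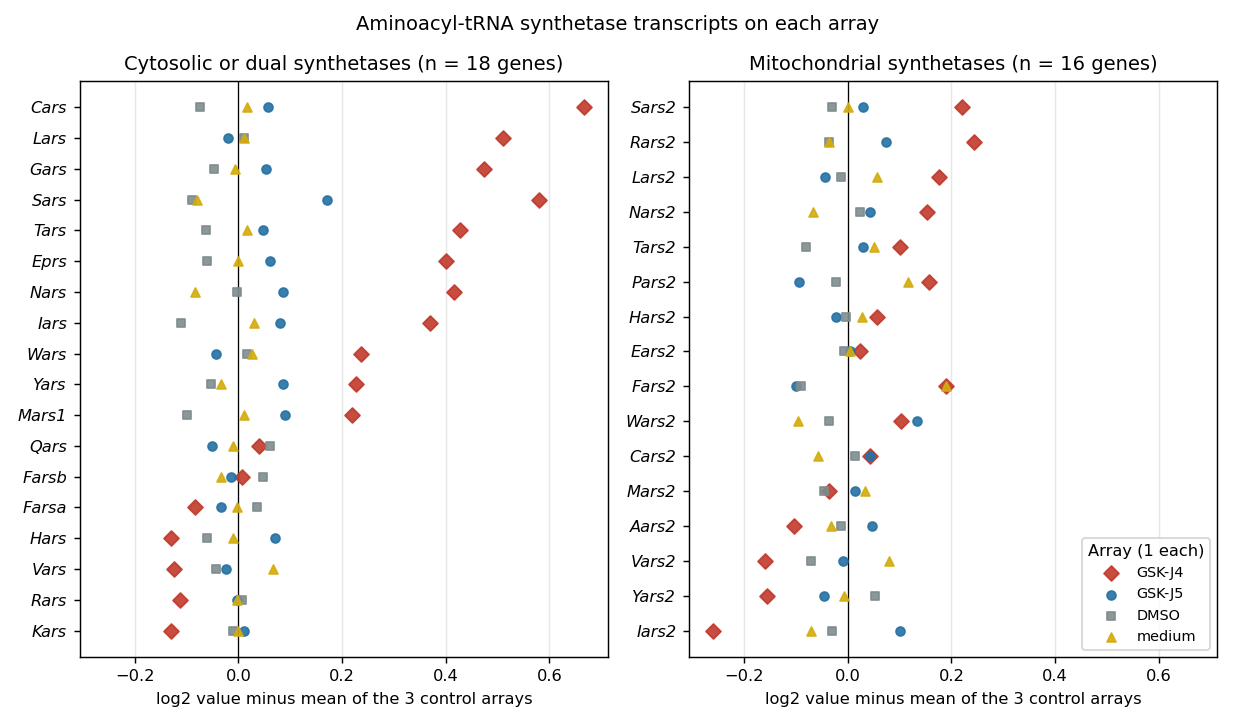
Each row is a gene and each point an array (1 per treatment), placed by its log2 value minus the mean of that gene's 3 control arrays; genes are ordered by margin. In the left panel GSK-J4 lies right of all controls for 11 of 18 cytosolic or dual members, up to 0.67 for Cars. In the right panel it does so for 8 of 16 mitochondrial members, up to 0.24 for Rars2, and lies farthest left at −0.26 for Iars2.

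Counted without regard to size, 11 of 18 cytosolic members (61.1%) and 8 of 16 mitochondrial members lay above all 3 controls, and 38.0% of genes did. Below all 3 controls lay 5 cytosolic and 4 mitochondrial members, beside 35.5% of genes. A stricter reading, chosen after the values were seen, asked for a margin larger than the range of the gene's own controls. It was met upward by 9 cytosolic and 4 mitochondrial members, beside 21.5% of genes, and downward by 2 of each class, beside 18.1% of genes. With limma, the 3 controls taken as replicates of each other, 7 cytosolic and 0 mitochondrial members were higher at an adjusted p under 0.05, beside 8.22% of genes, and 0 of either class were lower, beside 4.99%. Those 7 were the members past 25%, Cars, Lars, Gars, Sars, Tars, Eprs and Nars. An unadjusted p under 0.05, in either direction, was reached by 10 of 18 cytosolic and 3 of 16 mitochondrial members, beside 33.3% of genes. That fit assumes that the lone GSK-J4 array varies as the controls do, and takes GSK-J5, DMSO and medium as a single condition.

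Mitochondrial synthetases spread on either side of the controls by small amounts. Sars2, for serine, read 10.56 in GSK-J4, against 10.37 in GSK-J5, 10.31 in DMSO and 10.34 in medium. Rars2, for arginine, read 10.69 in GSK-J4, against 10.52 in GSK-J5, 10.41 in DMSO and 10.41 in medium. These 2 were the highest of the class, with margins of 0.19 and 0.17, both beyond the range of their controls. Lars2 (leucine) read 8.68 in GSK-J4, with the controls between 8.46 and 8.56, and Nars2 (asparagine) 9.34, against 9.12 to 9.23. Nars2 is the only member with 2 probe sets, and its dimmer one read 6.66 in GSK-J4, with the controls between 6.72 and 7.17, so the probe sets disagree on the side. Tars2, Pars2, Hars2 and Ears2, for threonine, proline, histidine and glutamate, lay above the controls by 0.05 or less. Tars2 lay 0.05 above controls of 9.82 to 9.95, and Pars2 read 8.56 in GSK-J4, against 8.31 to 8.52. Hars2 read 9.59 in GSK-J4, against 9.51 to 9.56, and Ears2 10.22, against 10.19 to 10.20. Only for Ears2, whose controls nearly coincided, was that more than the controls' range. The margins of Pars2, Hars2 and Lars2 rest on the medium array and were 0.18, 0.06 and 0.19 without it. That of Rars2 was 0.28 without GSK-J5. After repeated quantile normalization 6 of 16 mitochondrial members lay above all controls, with Pars2, Hars2 and Ears2 inside.

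Iars2, for isoleucine, was the lowest of all 34 members. It read 10.38 in GSK-J4, against 10.74 in GSK-J5, 10.61 in DMSO and 10.57 in medium, a margin of −0.19 with no overlap. Yars2 (tyrosine), Vars2 (valine) and Aars2 (alanine) also lay below all controls, with margins of −0.11, −0.09 and −0.07. Yars2 read 10.88 in GSK-J4, against 10.99 to 11.09, Vars2 8.97, against 9.06 to 9.21, and Aars2 9.51, against 9.58 to 9.66. Fars2, Wars2, Cars2 and Mars2, for phenylalanine, tryptophan, cysteine and methionine, did not leave the range of the controls, which single arrays set: Fars2 lay 0.28 above the other controls without medium and Wars2 0.14 above them without GSK-J5, and Mars2 lay 0.05 below them without DMSO. Fars2 read 8.80 in GSK-J4 and 8.80 in medium, against 8.51 in GSK-J5 and 8.52 in DMSO, so there the medium array went with GSK-J4. Wars2 read 8.43 in GSK-J4, against 8.23 to 8.46, Cars2 10.71, against 10.61 to 10.71, and Mars2 8.97, against 8.96 to 9.04.

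As classes, the cytosolic members had a median difference of 0.23 from the control mean in GSK-J4, and the mitochondrial members one of 0.08. Over all genes above the filter the median was 0.00. Each control array is part of the control mean, which draws it closer to that mean than GSK-J4, which is not. So measured, the cytosolic median was 0.05 in GSK-J5, −0.04 in DMSO and 0.00 in medium, an SD of 0.05 among the controls. The mitochondrial median was 0.02 in GSK-J5, −0.03 in DMSO and 0.00 in medium (SD 0.02). The cytosolic members lay on both sides of the control mean: their differences ran from −0.13 to 0.67, with 11 members at 0.22 or above and the other 7 at 0.04 or below. Mitochondrial differences ran from −0.26 to 0.24. The gap of 0.15 between class medians was 0.22 after repeated quantile normalization and 0.22 after loess.

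The classes also differ in array brightness, which depends on the probes and does not order transcript amounts. Means over the 4 arrays ran from 10.72 to 12.87 for cytosolic members and from 8.35 to 11.00 for mitochondrial ones. Among the 2613 genes in the cytosolic range 3.44% were at least 25% higher in GSK-J4, and their median difference was −0.03. Among the 6016 genes in the mitochondrial range 7.68% were, and the median was 0.04. The part of brightness in the gap between the classes was not tested.

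For 12 amino acids a cytosolic and a mitochondrial member were paired by symbol, and the cytosolic one had the larger difference in 10. Isoleucine showed the widest gap, with Iars at 0.37 and Iars2 at −0.26 from the control mean. Cysteine followed, with Cars at 0.67 and Cars2 at 0.04. For tyrosine the pair also lay on opposite sides, Yars at 0.23 and Yars2 at −0.16. Serine, leucine, threonine and asparagine had both enzymes above the control mean and the cytosolic one higher by 0.26 to 0.36. For methionine Mars1 was at 0.22 and Mars2 at −0.04, and for tryptophan Wars at 0.24 and Wars2 at 0.10. Both valine enzymes lay below the control mean, at −0.12 for Vars and −0.16 for Vars2. Arginine and histidine ran the other way: Rars was at −0.11 and Rars2 at 0.24, and Hars at −0.13 and Hars2 at 0.06. The median gap over the 12 pairs was 0.30. Phenylalanine, glutamate and proline also had members in both classes but were not paired, as their cytosolic symbols differ. Farsa was at −0.08 and Farsb at 0.01 from the control mean, with Fars2 above both at 0.19. Eprs, for glutamate and proline, was at 0.40, with Ears2 at 0.02 and Pars2 at 0.16.

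**Figure D2:**
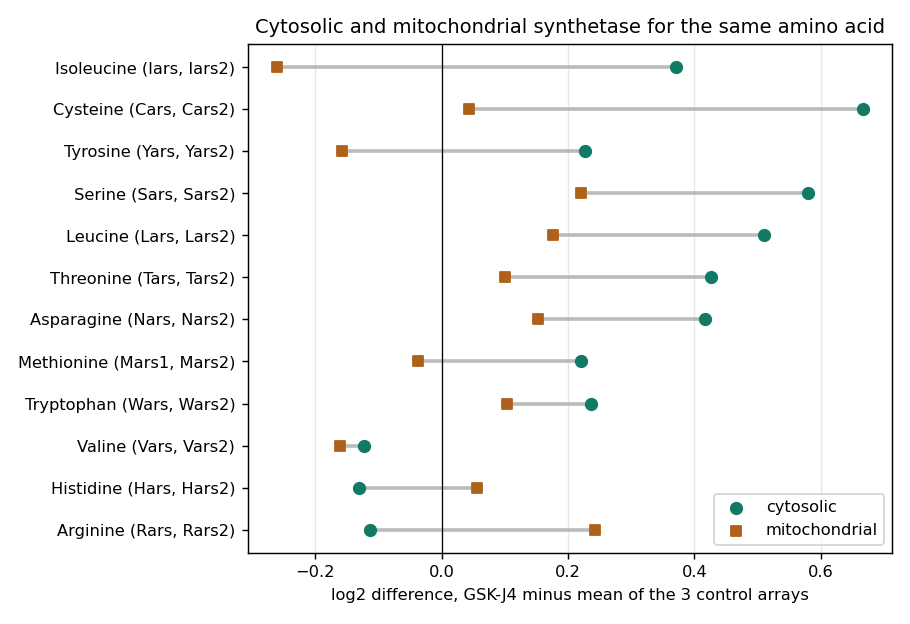
Each row is an amino acid whose genes were paired by symbol, so phenylalanine, glutamate and proline are not shown. Points give the log2 difference of GSK-J4 from the mean of the 3 controls for the cytosolic gene (circle) and the mitochondrial gene (square). Rows are ordered by the gap. The circle lies right of the square in 10 of 12 rows, by up to 0.63 for isoleucine, and left of it for histidine and arginine.

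**Figure D3:**
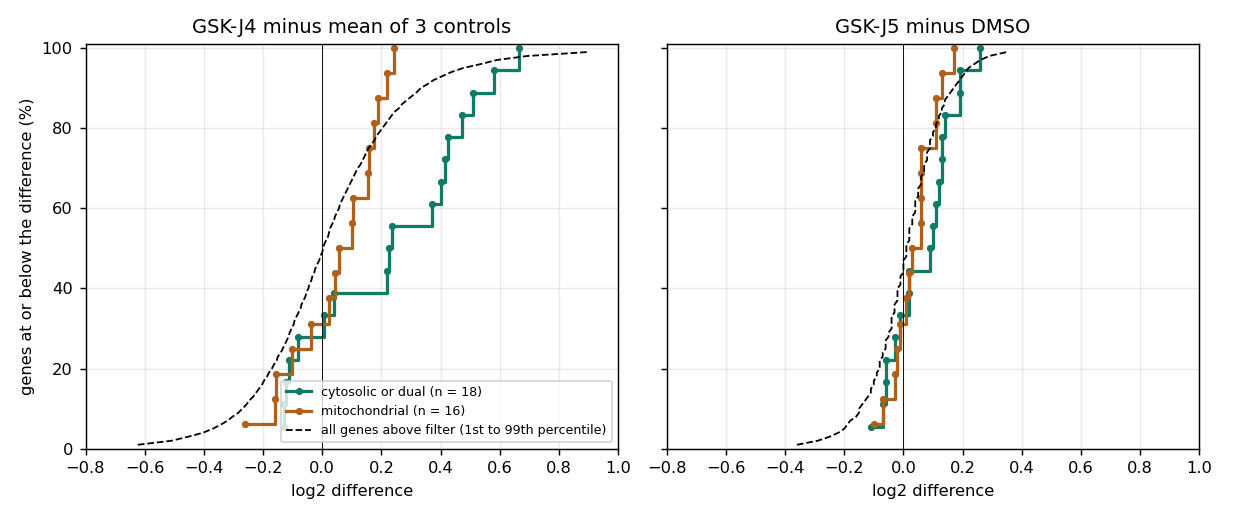
Cumulative share of genes (%) against the log2 difference, for GSK-J4 minus the mean of 3 controls (left) and GSK-J5 minus DMSO (right); solid lines with points are the 18 cytosolic or dual and 16 mitochondrial members, and the dashed line runs from the 1st to the 99th percentile of all genes above the filter. On the left the cytosolic line steps from 0.04 to 0.22 and ends at 0.67, and the mitochondrial line ends at 0.24; on the right they end at 0.26 and 0.17.

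Synthetases fall into class I and class II by the fold of their catalytic domain, and several cytosolic ones are held in a multisynthetase complex. Neither grouping separated the members that were higher. Eprs is counted in class I for its glutamate part, although its proline part is of class II. Of the 10 class I cytosolic enzymes so counted, 3 (Cars, Lars and Eprs) were at least 25% higher, with a median difference of 0.23, and of the 8 class II enzymes 4, with a median of 0.21. Of the 7 complex enzymes measured, Lars and Eprs passed 25%, Iars and Mars1 were higher by less, Qars was inside the controls, and Rars and Kars were below. Transcripts of the subunits of this complex thus lay on both sides of the controls. Outside the complex 5 of 11 passed 25%, and the medians were 0.22 inside and 0.24 outside. Of the members with a promoter in the table, the 4 that held the element had margins from 0.14 to 0.42. The 7 cytosolic ones without it had margins from −0.12 to 0.41, and 3 of these (Eprs, Mars1 and Sars) lay above all controls. Cars, Hars, Lars, Nars, Rars, Vars, Wars, Hars2 and Pars2 are not in the table used here.

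Of the other genes around transfer RNA charging and translation listed here, Xpot was the only one at least 25% higher in GSK-J4, and Pop1 and Eef1d were the only ones at least 25% lower. Of all genes above the filter 7.17% were higher and 3.96% lower by that margin, so so few calls do not set these lists apart. Xpot, which exports transfer RNA from the nucleus, read 12.03 in GSK-J4, against 11.60 in GSK-J5, 11.54 in DMSO and 11.62 in medium, a margin of 0.41 that lies among those of the cytosolic synthetases. Of the scaffold genes of the complex, Aimp1 read 10.30 in GSK-J4, inside its controls, and Eef1e1 12.48, against 12.60 to 12.68. Of the mitochondrial genes that make glutaminyl-tRNA by amidation, Qrsl1 had a margin of 0.10, Gatc was inside its controls and Gatb had a margin of −0.07. Mtfmt, which formylates the mitochondrial initiator, had a margin of 0.10.

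Of 10 transfer RNA maturation genes 0 were at least 25% higher and 1 lower, Pop1, a subunit of RNase P (9.66 in GSK-J4, against 10.02 to 10.08). For this list and those that follow, the shares over all genes above the filter were 7.17% higher and 3.96% lower. Of 7 proofreading and selenocysteine genes 0 passed 25% in either direction. Among them Tarsl2, another threonine synthetase gene outside the symbol pattern, read 8.62 in GSK-J4, with the controls between 8.48 and 8.67. Of 6 cytosolic elongation factor genes Eef1d, a subunit of the exchange factor of elongation, was lower (10.69 in GSK-J4, against 11.19 to 11.27). Eef1a1, Eef1b2 and Eef2 had margins of 0.04 to 0.11, and Eef1g and Eif5a were inside the controls. Of 9 mitochondrial translation factor genes 0 passed 25%. Median differences were −0.14 for maturation, −0.11 for proofreading, 0.03 for cytosolic elongation and 0.04 for mitochondrial factors.

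The genes of the ATF4 circuit had larger differences than either synthetase class. All 8 of its genes were at least 25% higher in GSK-J4, beside 7.17% of genes, and 6 of them by 1.5-fold, beside 2.21%. Their median difference was 1.17. Atf4 read 9.91 in GSK-J4, against 9.28 to 9.35, and Asns 12.60, against 12.05 to 12.16. The margin of Asns (0.44), an amino acid enzyme gene, is of the size seen for Gars, Sars and Tars, while Trib3, a pseudokinase gene, had one of 2.02. The search found the element in Trib3 and Atf3 as well as in Asns and Chac1, and did not find it in Sars. It gave no match for Atf4, Ddit3, Atf5, Cebpb or Xpot. Whether the promoters of those genes were among the ones searched is not given. Holding the element thus did not go with 1 size of margin. The transcription factor genes Ddit3, Atf3, Atf5 and Cebpb had margins of 1.76, 1.33, 0.97 and 0.86, and Chac1 one of 1.10. These 8 genes were chosen with earlier results of these arrays known, so they are no independent support.

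**Figure D4:**
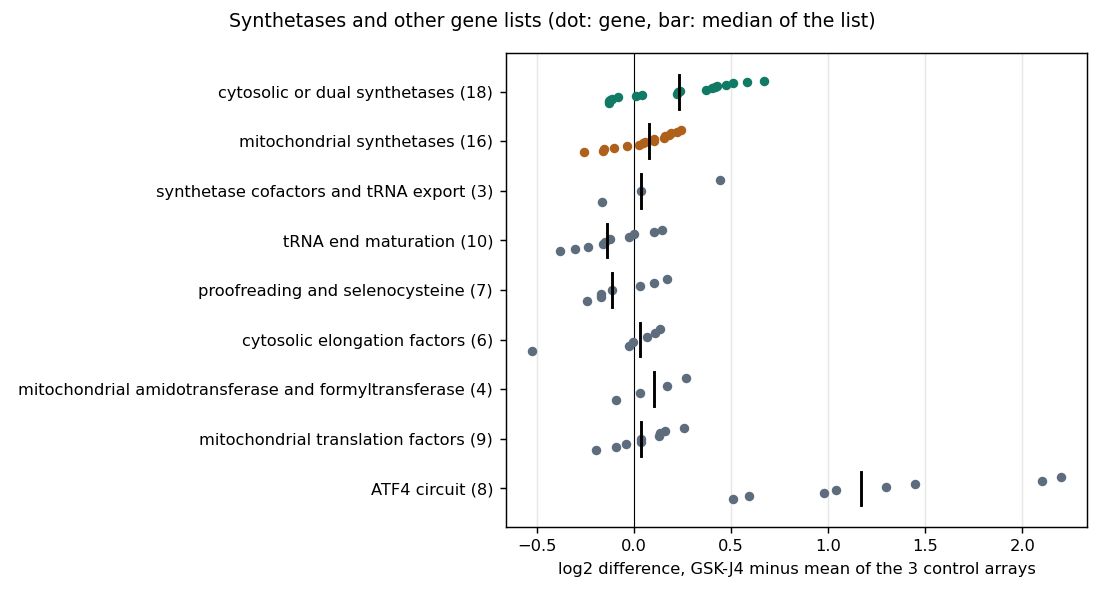
Each dot is a gene, placed by its log2 difference of GSK-J4 from the mean of the 3 controls, with the number of genes measured in brackets and a bar at the list's median. Cytosolic synthetases reach 0.67 with a median of 0.23, the other translation lists have medians between −0.14 and 0.10, and all 8 ATF4 circuit genes lie above 0.50.

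Against GSK-J5 alone, whose dose and time were the same, the GSK-J4 array had 1 of 18 cytosolic members at least 1.5-fold higher, Cars (0.61), and 0 of 16 mitochondrial members, beside 3.28% of genes. At 25% it had 7 cytosolic and 0 mitochondrial members, beside 11.3% of genes. Lower than in GSK-J5 by 25% were 0 cytosolic members and 1 mitochondrial member, Iars2 (−0.36), beside 8.08% of genes. The median difference was 0.21 for cytosolic and 0.04 for mitochondrial members, and the cytosolic median was 0.30 against DMSO and 0.23 against medium. With 1 array of each compound no interval can be given for these differences. Comparisons of GSK-J4 with GSK-J5 and of GSK-J5 with DMSO share the GSK-J5 array.

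GSK-J5 differed little from DMSO in these genes. By 1.5-fold 0 of 34 members were higher, beside 0.0526% of genes, and 0 were lower, beside 0.12%. The median difference was 0.10 for cytosolic members and 0.04 for mitochondrial members, and 0.01 over all genes. Of the cytosolic members 12 of 18 read above DMSO, as did 11 of 16 mitochondrial ones, beside 52.1% of genes. Sars stood out with 0.26 over DMSO and 0.25 over medium, and the next member to exceed both, Wars2, did so by 0.17 and 0.23. Mars1 and Iars read 0.19 above DMSO in GSK-J5, but 0.08 and 0.05 above medium, and DMSO was the lowest control in both genes.

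Above both DMSO and medium lay 11 of 18 cytosolic members in GSK-J5 and 7 of 16 mitochondrial members, beside 29.7% of genes. Against medium alone the class medians of GSK-J5 were 0.04 and −0.01. Lars (−0.03 from DMSO) and Wars (−0.06), both higher in GSK-J4, were not higher in GSK-J5. Wars2 (0.17) and Iars2 (0.13) had the largest mitochondrial values over DMSO. Iars2 was thus highest in GSK-J5 and lowest in GSK-J4 of all arrays.

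**Figure D5:**
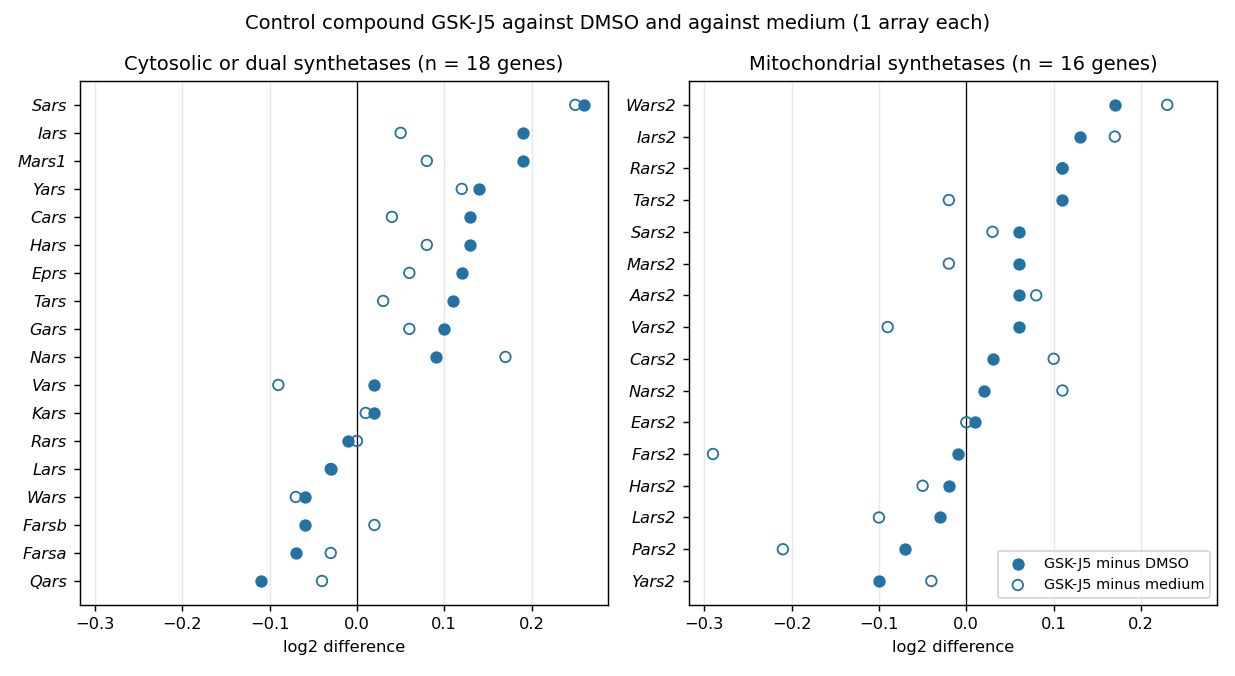
Each row is a gene, ordered by the log2 difference of GSK-J5 from DMSO (filled), with GSK-J5 minus medium beside it (open). Filled points lie between −0.11 and 0.26 for cytosolic or dual members and between −0.10 and 0.17 for mitochondrial members; Sars is the highest of the left panel in both comparisons.

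Array medians over all 41345 probe sets lay between 6.63 and 6.65. Pou5f1, Nanog, Sox2 and Zfp42, markers of pluripotent cells, read at least 9.69 on every array, so defining markers of the labelled cells were present. Over the 11 markers of pluripotent cells and early embryoid bodies the mean was 10.92 in GSK-J4 and 11.16 to 11.20 in the controls, while the median difference was −0.10. Fgf5 (margin −1.43), Dnmt3b (−0.77) and Tdgf1 (−0.36) were at least 25% lower, Otx2 lay 0.31 below the controls, and Klf4 and Esrrb lay above them by 0.25 and 0.11. Of 10 feeder fibroblast markers 0 lay above and 7 below all controls in GSK-J4, beside 38.0% and 35.5% of genes above the filter. Only 6 of the 10 passed the filter, and the list mean was 6.29 in GSK-J4 and 6.50 to 6.56 in the controls. Thbs1 (margin −0.40) was the marker above the filter that was at least 25% lower. Col3a1, Dcn, Lum and Postn read under the filter level on all arrays, and Dcn and Lum were among the markers below all controls. Of 6 primitive endoderm markers the mean was 6.76 in GSK-J4 and 6.83 to 6.92 in the controls, with Gata4 and Gata6 above all controls by 0.10 and 0.02 and Sox17, Foxa2, Afp and Sox7 below them by 0.02 to 0.25. Of 6 blood and endothelial markers it was 7.22 in GSK-J4 and 6.95 to 6.99 in the controls. Laptm5 (margin 1.29) and Pecam1 (0.37) were higher there, Cdh5, an endothelial cadherin gene, was lower (−0.35, under the filter level on average), and Kdr and Gata1 were inside the controls. Only Laptm5 and Pecam1 passed the filter. Pecam1 was the brightest of the list on every array, at 11.17 in GSK-J4 and 10.72 to 10.80 in the controls, while the other endothelial markers were dim. Ptprc, which defines blood cells, read 4.37 to 4.51 on all arrays. The part of such cells in the synthetase values was not tested.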

How the data were processed

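The authors deposited log2 expression values per probe set. The submitters' processing notes name RMA and Affymetrix Expression Console, version 1.2.1.20. RMA normalizes the probes of the arrays to each other before it summarises them, so a shift of all transcripts would not be seen. Base 2, on which every fold rests, was taken from the spread of the values. The log base and a genome build are not given in the sources used here. No scanner files were used here, so detection could not be examined.

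Of 41345 probe sets, 23521 had a single symbol in the platform annotation, which can be old. For genes with several probe sets the brightest was taken (22180 genes), and 13314 reached the 40th percentile of the mean over arrays. Groups came from the treatment labels. The synthetase rule, the gene lists and the rules of size were chosen with earlier results of these data known. All members are named, with the genes of the translation and ATF4 lists that passed a fold and all measured genes of such lists of 6 or fewer; others, cell type markers included, were chosen after their values were seen. The promoter search was added after the values were seen. RefSeq identifiers gave promoters for 25 of 34 members.

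Alternatives were other filters, median centring, quantile normalization, loess (span 0.3), the median over probe sets, other folds, leaving out each control, medium in place of DMSO, and limma 3.58.1 in R 4.3.3, across all genes above the filter with 2 residual degrees of freedom. The rule of size and limma were checked on simulated data with 2-fold changes and the same spread for every gene. That check does not cover changes as small as those of the synthetases. Python 3.11.15 and pandas 2.3.3 were used.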

Additional observations from a re-analysis of the deposited data

Results flagged for a closer look

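The probe set that lists Aars together with Exosc6, left out of the comparisons because it carries 2 symbols, read 12.01 in GSK-J4, against 11.78 in GSK-J5, 11.63 in DMSO and 11.75 in medium. It lay 0.23 above the highest control. Which of the 2 genes it measures was not tested.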

How the results depend on the processing

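Of 306 margins of single members under the alternatives, 33 moved by more than the SD of that gene's controls, and 0 members outside the controls went to their opposite side. Mitochondrial members above all controls numbered 6 under quantile normalization and under loess, 7 with the median over probe sets (Nars2 inside) and 8 to 10 without 1 control, where the count was 8; Mars2 went below them by 0.10 under quantile normalization. At 25% 8 cytosolic members passed under loess and without GSK-J5. For these counts under the alternatives no share over all genes is given, and leaving out a control can only keep or widen a margin. The count of 1 cytosolic member at 1.5-fold (2.21% of genes) became 7 at 25% (7.17%), 0 at 2-fold and 9 by the rule on the controls' own range (21.5%). Looser rules thus called more of all genes as well, and no share of genes is given at 2-fold. The rule on the controls' range gave 4 mitochondrial members higher and 4 members lower (18.1% of genes were), where 1.5-fold gave 0 of each. Under limma 0 members were lower at an adjusted p under 0.05, and 10 cytosolic members (all higher) and 3 mitochondrial members (Sars2 and Rars2 higher, Iars2 lower) had an unadjusted p under 0.05, beside 33.3% of genes. Leaving out 1 control gave 1 to 2 cytosolic members, the 2 being Cars and Sars without GSK-J5, a cytosolic median of 0.22 to 0.27, a mitochondrial median of 0.06 to 0.09 and a class gap of 0.17 to 0.18. The gap of 0.15 was 0.22 under quantile normalization, 0.22 under loess and 0.18 with the median over probe sets; the mitochondrial median of 0.08 was 0.03, 0.05 and 0.05 there. The cause was not tested. The gap was 0.15 without Gars and Kars, and the cytosolic median was 0.24 with the shared Aars probe set, both added after seeing the data. With medium in place of DMSO the GSK-J5 medians were 0.04 (cytosolic) and −0.01 (mitochondrial), so the mitochondrial one turned its sign. No paired analysis was possible because each treatment has 1 array and the labels carry no replicate numbers. The small number of arrays limits every difference, and signal over background is unknown in these values.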
